A study of Mus musculus with 4 samples.

Results

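TRIM genes encode proteins built on a tripartite motif, a RING finger followed by B-box zinc fingers and a coiled coil, and most of them act as E3 ubiquitin ligases. The RING finger recruits the ubiquitin-loaded E2 enzyme, the coiled coil pairs the chains, and a variable C-terminal domain, most often PRY-SPRY, binds the target. In macrophages the family is known for antiviral restriction and for tuning the signals of RIG-I, cGAS and Toll-like receptors, and many of its genes are induced by interferon. The members described here are the protein-coding genes named Trim and a number whose 4 read counts sum to at least 50. They were thus selected on their measured counts. These are 41 of the 68 protein-coding genes with such names, out of 54532 genes in the table. Their detection is not a result. All 41 had at least 1 count in every library and all 41 were tested in the model below. An average of 1 CPM or more (normalized library-scaled counts) was reached by 39, all but Trim7 and Trim17. Just above the threshold were Trim17 with 69 counts, Trim7 with 70 and Trim46 with 159. Just below it were Trim29 with 37, Trim34b with 36 and Trim66, tied with Trim15 at 22.

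RNA was sequenced from bone marrow-derived macrophages of C57BL/6 mice aged 6 to 8 weeks, grown for 6 days in medium with 20% L929 cell-conditioned medium. The genotype tags are FBXW7f/f, floxed alleles of Fbxw7, and LysM-cre FBXW7f/f, which adds a Cre recombinase driven from the lysozyme gene Lyz2 in myeloid cells, so all tags share the floxed alleles. The titles give 4 groups of 1 library each, WT and KO left untreated and WT and KO given LPS, the bacterial ligand of TLR4, for 3 h. The sources used here do not say whether marrow was pooled.

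Libraries held between 17610372 and 23835940 counts. The genotype tags disagree with the titles: both untreated libraries are tagged FBXW7f/f and both LPS libraries LysM-cre FBXW7f/f. By the tags alone, genotype and LPS cannot be told apart. Groups here follow the titles, and treatment is the same in both fields. The targeted gene, Fbxw7, stood at 17.9 and 17.2 CPM without LPS and 9.90 and 11.7 CPM after LPS, in the order WT and KO, so gene-level counts did not separate the genotypes. Lyz1, a neighbour of Lyz2, stood at 2.86 and 32.9 CPM without LPS and 33.1 and 2.63 CPM after LPS in the same order, which pairs KO untreated with WT LPS. Every direction by genotype below is between titled libraries. All 8 macrophage markers passed 1 CPM, with summed levels from 15548.5 to 26889.7 CPM. Summed levels of 7 neutrophil, 7 T cell, 5 B cell, 5 dendritic cell, 5 fibroblast, 7 erythroid, 4 mast cell and 5 muscle markers lay between 0.0612 and 62.0 CPM. The highest of these was the T cell list in KO LPS, of which Cd4 made up 56.0 CPM. Erythroid Hba-a2, Hbb-bs and Hbb-bt, the mast cell gene Mcpt4 and muscle Myh1, Myh2, Ckm and Actn2 had 0 counts in all libraries. In bulk RNA, fewer cells of a type and less RNA per cell cannot be told apart.

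The question put to all 4 libraries was which TRIM genes respond to LPS in both genotypes. Among members that passed the test, the largest rises were those of Trim30c, Trim30b, Trim21 and Trim26, and the falls were those of Trim16, Trim62, Trim65 and Trim41. In edgeR's quasi-likelihood test of an additive model of title and treatment, 13 of 41 members passed upward and 4 passed downward at a Benjamini-Hochberg adjusted p under 0.05, over 13989 genes. The same test called 9.35% of all genes upward and 5.14% downward. The median effect was −0.34 log2 over the 41 members and −0.05 over all genes tested. All 17 called members moved the same way in both titles, and their 2 LPS libraries did not overlap their 2 untreated ones. The test itself favours genes with this pattern, so the agreement is not separate support. Such separation is common here, since both LPS libraries lay above both untreated ones for 34.6% of all genes at 1 CPM and below them for 38.1%. The corresponding counts were 14 and 17 of 39 members, shares near those backgrounds. The model leaves 1 residual degree of freedom, which holds how far these 4 libraries depart from additivity. The error of each gene also borrows from a spread estimated across all tested genes, so it is not specific to that gene. With treatment alone in the model, 13 members rose and 11 fell, against 16.7% and 15.3% of all genes. With library totals in place of TMM scaling, the additive model called 10 members upward and 16 downward, against 6.55% and 22.5% of all genes. Below, ± is the standard error (SE) implied by the F statistic.

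**Figure D1:**
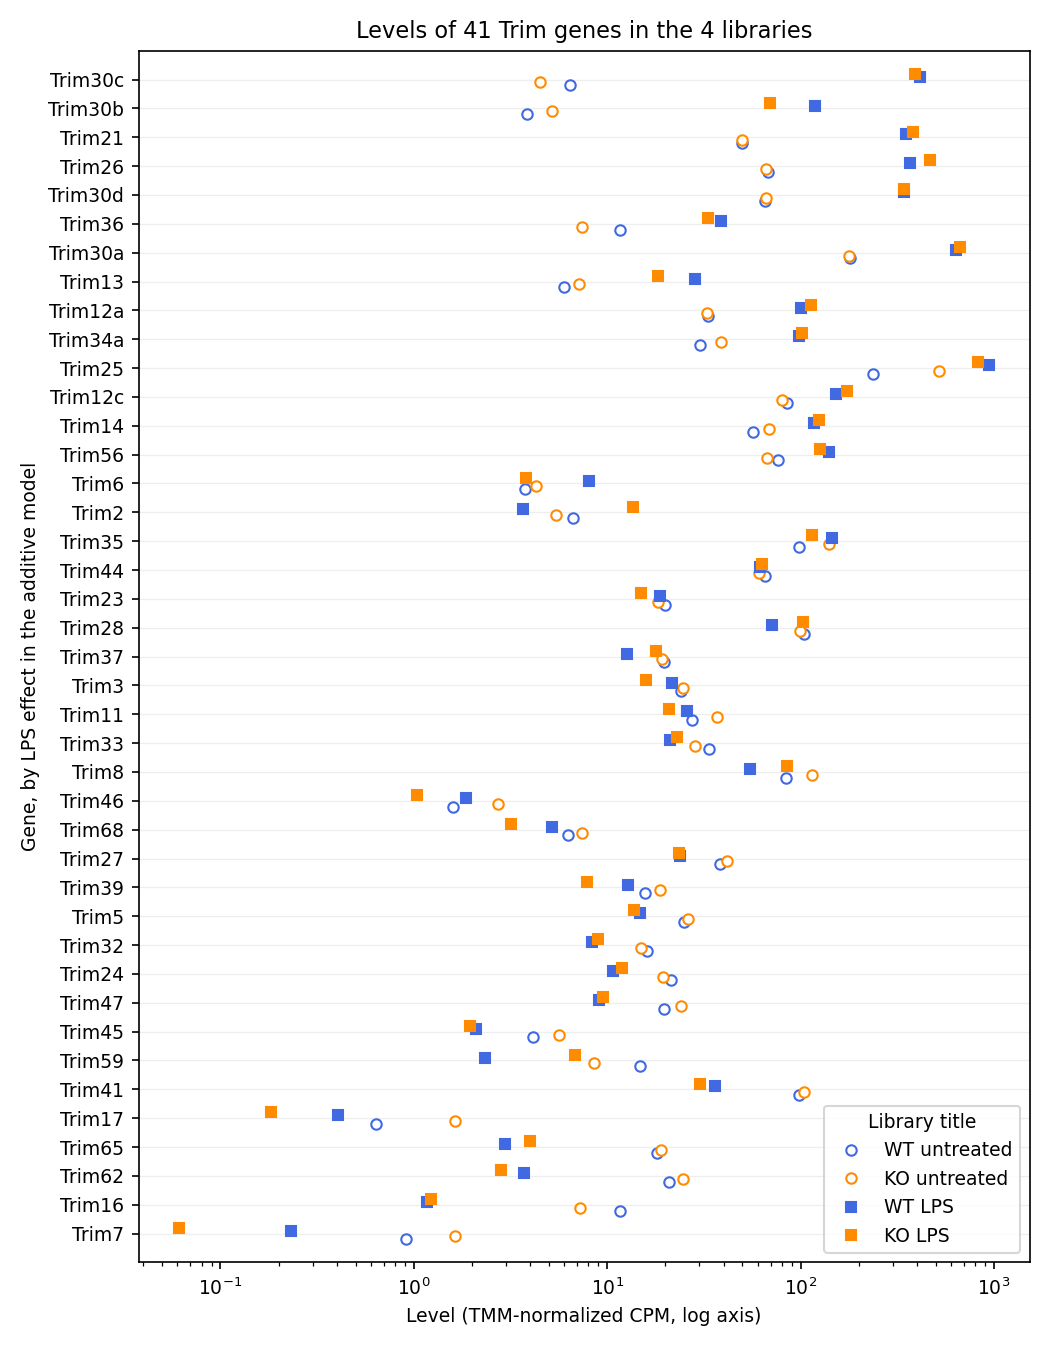
Level of each of the 41 Trim genes in the 4 libraries (TMM-normalized CPM, log axis), ordered by the LPS effect of the additive model. Circles are untreated and squares LPS libraries, with WT titles in blue and KO titles in orange. Trim30c moves from 6.44 and 4.48 CPM to 417 and 389 CPM, and Trim16 from 11.7 and 7.27 to 1.17 and 1.22 CPM.

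The 9 members of the Trim5/Trim30 group lie in 1 cluster on mouse chromosome 7, from 104218793 to 104507849 (mm10), a span of 289 kb that holds 10 protein-coding genes, all of them Trim genes. It is the mouse counterpart of the human TRIM5 region, whose proteins are known for recognising retroviral capsids. The other gene, Trim34b, fell under the count rule. Of the 9 members here, 7 rose and 0 fell, with a median effect of 1.73.

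Trim30c (ENSMUSG00000078616, 104382065 to 104400837, minus strand), a rodent-specific member of the Trim30 group, had the largest effect of any member. It had 142 and 124 counts (6.44 and 4.48 CPM) in the untreated libraries titled WT and KO and 7160 and 6359 counts (417 and 389 CPM) after LPS. Both LPS libraries were thus far above both untreated ones, and the effect was 6.26 ± 0.31 log2 (adjusted p = 0.00438). Its neighbour Trim30b (ENSMUSG00000052749, 104355382 to 104369884, minus strand) stood at 3.86 and 5.17 CPM without LPS and 118 and 69.7 CPM after LPS. Trim30b rose by 4.37 ± 0.37 (adjusted p = 0.00626), with the WT LPS library above the KO LPS library.

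Trim30a (ENSMUSG00000030921, 104409025 to 104465193, minus strand) encodes a protein known to restrain NF-κB signalling by driving loss of TAB2 and TAB3. It stood at 180 and 177 CPM without LPS and 639 and 669 CPM after LPS, and rose by 1.91 ± 0.26 (adjusted p = 0.0154). Trim30d (ENSMUSG00000057596, 104470014 to 104507849, minus strand), also called TRIM79 and known to restrict tick-borne flaviviruses, stood at 65.4 and 66.3 CPM without LPS and 343 and 344 CPM after LPS. Its effect was 2.42 ± 0.23 (adjusted p = 0.00777). For both genes the 2 titles gave nearly the same level within each treatment.

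Trim12a, Trim12c and Trim34a, relatives of primate TRIM5 and TRIM34, rose by smaller amounts. Trim12a stood at 33.2 and 32.9 CPM without LPS and 100.1 and 114 CPM after LPS (1.73 ± 0.21, adjusted p = 0.0120). Trim34a stood at 30.3 and 38.6 CPM without LPS and 98.0 and 102 CPM after LPS (1.58 ± 0.21, adjusted p = 0.0149). Trim12c stood at 85.3 and 80.3 CPM without LPS and 152 and 174 CPM after LPS (1.01 ± 0.22, adjusted p = 0.0461). The call for Trim12c was lost under library totals (0.44, adjusted p = 0.206).

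Within the cluster, 2 members did not pass. Trim5 stood at 25.1 and 26.1 CPM without LPS and 14.8 and 13.8 CPM after LPS, an effect of −0.80 ± 0.24 (adjusted p = 0.0936) opposite in sign to its neighbours. Trim6, whose protein is known for making unanchored ubiquitin chains that activate IKKε, stood at 3.76 and 4.27 CPM without LPS and 8.04 and 3.79 CPM after LPS. Only the WT LPS library was high for Trim6, and its effect was 0.50 ± 0.47 (adjusted p = 0.489). Sequence sharing limits some of these values. Of the 100-base words of Trim34a transcripts, 21% also occur in Trim34b, and 11.7% of those of Trim5 and 8.05% of those of Trim12c occur in other genes. For Trim30a and Trim30d the share was 4.41% and 4.57%, and for Trim30b and Trim30c it was 0, so the largest effects rest on reads that can be told apart at that length.

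**Figure D2:**
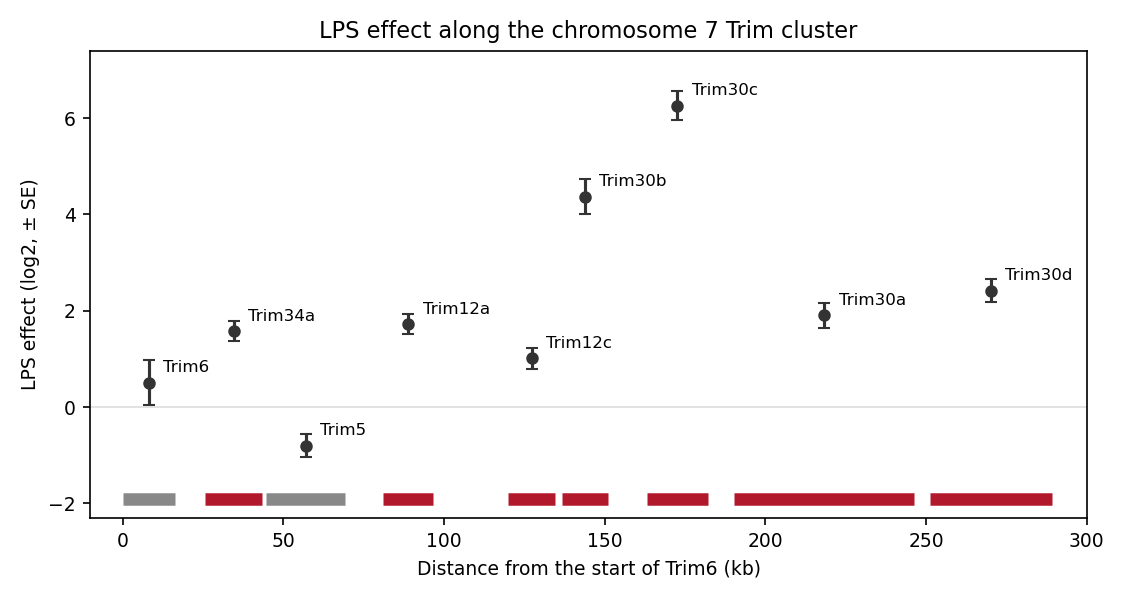
LPS effect (log2, additive model) of 9 Trim genes against distance in kb from the start of Trim6. Error bars are the SE implied by the F statistic. Bars along the bottom show each gene's extent, red where the gene passed the test and grey where it did not. Trim30b and Trim30c stand above the rest at 4.37 and 6.26, and Trim5 lies below 0 at −0.80.

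Promoter sequences were examined because 7 neighbours rose together. RefSeq (GRCm38.p6) gave windows of 250 bases before to 50 bases after a start site for 31 of 41 members, and 26 had a window within 500 bases of the gene start in the table. Trim3, Trim8, Trim11, Trim14, Trim16, Trim17, Trim33, Trim35, Trim36 and Trim65 had no entry. The core of the interferon-stimulated response element, a motif of many interferon-induced promoters, was searched on both strands as GAAA, any 2 bases and GAAA, with overlapping matches counted. It was present for 7 of 11 rising members with a window, for 2 of 18 that did not pass and for 0 of 2 that fell, while 3.44% of all 32851 windows hold it. The 7 were Trim12a, Trim12c, Trim21, Trim26, Trim30a, Trim30d and Trim34a, and the other 2 were Trim5 and Trim2. Of these 9 genes 6 lie in the cluster and are related copies, so they are not independent, and genes with several windows had more chances of a match. Some windows lie far from the gene start. The start site of the matching Trim2 window is 94039 bases from it. Trim30b, a rising gene without the element, had only a window at 11238 bases. A STAT site, TTCNNNGAA, was found for 3 members (Trim30c, Trim45 and Trim46) against 8.30% of all windows, and an NF-κB site, GGGA, any 2 bases and TTCC, for Trim28 alone against 1.47%. These are matches of letters, not measured binding. The windows below show 4 rising genes that hold the element. They also show Trim30c, the gene of largest effect, with a STAT match and no match of the element. Trim41 is shown as a falling gene with no match. Capitals mark the matches, and the start site is base 251.
Trim21, chr7:102565433-102565732, minus strand: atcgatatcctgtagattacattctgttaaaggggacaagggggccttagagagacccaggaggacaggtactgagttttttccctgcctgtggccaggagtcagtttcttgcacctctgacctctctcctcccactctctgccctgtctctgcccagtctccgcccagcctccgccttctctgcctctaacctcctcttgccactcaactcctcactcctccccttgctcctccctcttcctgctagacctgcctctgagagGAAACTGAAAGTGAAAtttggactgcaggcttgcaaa
Trim26, chr17:36836896-36837195, plus strand: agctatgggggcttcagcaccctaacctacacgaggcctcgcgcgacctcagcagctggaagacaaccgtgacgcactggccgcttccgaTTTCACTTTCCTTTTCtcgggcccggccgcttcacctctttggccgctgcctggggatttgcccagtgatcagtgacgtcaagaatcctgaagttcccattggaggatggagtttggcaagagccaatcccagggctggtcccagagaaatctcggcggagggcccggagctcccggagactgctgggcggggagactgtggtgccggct
Trim30a, chr7:104465144-104465443, minus strand: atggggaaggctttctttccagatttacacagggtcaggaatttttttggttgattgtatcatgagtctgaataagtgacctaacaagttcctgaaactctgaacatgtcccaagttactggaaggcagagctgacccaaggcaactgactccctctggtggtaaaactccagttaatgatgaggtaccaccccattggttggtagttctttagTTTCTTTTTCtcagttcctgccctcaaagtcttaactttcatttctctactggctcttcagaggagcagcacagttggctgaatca
Trim34a, chr7:104244207-104244506, plus strand: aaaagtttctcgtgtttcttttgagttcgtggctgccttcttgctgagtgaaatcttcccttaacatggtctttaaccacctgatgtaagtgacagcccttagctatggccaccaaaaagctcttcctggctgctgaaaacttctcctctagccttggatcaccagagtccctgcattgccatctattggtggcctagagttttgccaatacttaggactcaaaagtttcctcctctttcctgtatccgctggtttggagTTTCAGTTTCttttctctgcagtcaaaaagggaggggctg
Trim30c, chr7:104400729-104401028, minus strand: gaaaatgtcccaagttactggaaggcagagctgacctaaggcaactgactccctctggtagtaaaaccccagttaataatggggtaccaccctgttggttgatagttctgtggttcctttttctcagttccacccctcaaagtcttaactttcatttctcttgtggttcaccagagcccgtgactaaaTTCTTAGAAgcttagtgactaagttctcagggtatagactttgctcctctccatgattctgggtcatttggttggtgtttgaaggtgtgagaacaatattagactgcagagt
Trim41, chr11:48817342-48817641, minus strand: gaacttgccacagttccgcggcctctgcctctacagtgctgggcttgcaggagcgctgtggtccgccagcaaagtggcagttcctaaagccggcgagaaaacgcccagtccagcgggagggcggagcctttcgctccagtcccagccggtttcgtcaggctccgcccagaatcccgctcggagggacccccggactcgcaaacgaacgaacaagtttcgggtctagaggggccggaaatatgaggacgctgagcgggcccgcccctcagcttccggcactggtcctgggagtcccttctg
In Trim21 2 overlapping matches, GAAACTGAAA and GAAAGTGAAA, begin 13 and 19 bases after the start site. Trim26 holds 2 overlapping matches of the other strand that begin at offsets of −160 and −154 from the start site, read here as TTTCACTTTC and TTTCCTTTTC.

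Among the other PRY-SPRY members, 2 of 14 rose and 3 fell. Trim21 (ENSMUSG00000030966, chromosome 7, 102557921 to 102565486, minus strand) encodes the cytosolic Fc receptor that binds antibody-coated virus and directs it to the proteasome. It stood at 49.5 and 49.6 CPM without LPS and 349 and 382 CPM after LPS. The titles were level within each treatment, and the effect was 2.92 ± 0.24 (adjusted p = 0.00615). Trim26 (ENSMUSG00000024457, chromosome 17, 36837134 to 36859398, plus strand), an E3 ligase of the MHC region reported to act on IRF3, stood at 67.9 and 66.6 CPM without LPS and 369 and 469 CPM after LPS. It rose by 2.67 ± 0.26 (adjusted p = 0.00783).

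Trim25 (ENSMUSG00000000275, chromosome 11, 88999376 to 89020293, plus strand), the ligase known for ubiquitinating RIG-I, had the most counts of any member in every library. It had 5207 and 14467 counts untreated and 16245 and 13526 counts after LPS, or 236, 523, 946 and 828 CPM. WT untreated was low and the other 3 libraries were high. The LPS effect of 1.37 ± 0.42 did not pass (adjusted p = 0.0944). Over the 10 other fits, the adjusted p for Trim25 ranged from 0.00229 to 0.188, and it passed in 3 of them. Leaving out the KO untreated library, with treatment alone in the model, Trim25 gave 1.92 (adjusted p = 0.00672).

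The PRY-SPRY genes that fell were Trim41, Trim62 and Trim65. Trim62 (ENSMUSG00000041000, chromosome 4, 128883580 to 128911328, plus strand), known as an adaptor ligase for CARD9, stood at 20.9 and 24.7 CPM without LPS and 3.73 and 2.82 CPM after LPS (−2.77 ± 0.34, adjusted p = 0.0117). Trim65 (ENSMUSG00000054517, chromosome 11, 116121846 to 116131128, minus strand), known for activating MDA5 by ubiquitination, stood at 18.0 and 18.9 CPM without LPS and 2.97 and 3.98 CPM after LPS (−2.39 ± 0.33, adjusted p = 0.0153). Trim41 (ENSMUSG00000040365, chromosome 11, 48806404 to 48817353, minus strand), a ligase of protein kinase C, stood at 97.9 and 104.6 CPM without LPS and 36.3 and 30.2 CPM after LPS (−1.58 ± 0.22, adjusted p = 0.0155). In all 3 genes both LPS libraries lay below both untreated ones.

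Trim47 shares 5365 bases and the strand with Trim65 in the annotation. Its level was 19.6 and 24.0 CPM without LPS and 9.08 and 9.55 CPM after LPS, and its effect of −1.19 ± 0.27 just missed the threshold (adjusted p = 0.0504). Trim47 passed in 9 of the 10 other fits. Trim27, a ligase of endosomal protein sorting, stood at 38.4 and 41.8 CPM without LPS and 23.9 and 23.6 CPM after LPS (−0.72 ± 0.21, adjusted p = 0.0825). The remaining members of this group that did not pass were Trim7, Trim11, Trim17, Trim35, Trim39 and Trim68, with effects from −2.98 to 0.18. Trim7 had 4 and 1 counts in the LPS libraries titled WT and KO and Trim17 had 7 and 3, so their effects rest on few reads. Trim17 also shares 16.4% of its 100-base words with the histone gene Hist3h2a.

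In the group that lacks a RING finger, Trim14 rose, Trim16 fell and Trim44 did not pass. Trim14, a mitochondrial adaptor of RIG-I signalling that also stabilises cGAS, stood at 56.8 and 68.8 CPM without LPS and 118 and 125 CPM after LPS (0.99 ± 0.21, adjusted p = 0.0419). The call for Trim14 was lost under library totals (0.42, adjusted p = 0.182) and without the WT untreated library (0.86, adjusted p = 0.0519). Trim16 (ENSMUSG00000047821, chromosome 11, 62820231 to 62850808, plus strand), known for its part in autophagy of damaged lysosomes, had 258 and 201 counts untreated and 20 in each LPS library. It stood at 11.7 and 7.27 CPM without LPS and 1.17 and 1.22 CPM after LPS and fell by 2.91 ± 0.44 on the log2 scale (adjusted p = 0.0189). Trim16 overlaps Fbxw10 on the same strand over 3740 bases and shares 3.01% of its words with it. Trim44 was the flattest member, with 65.3, 60.8, 61.4 and 62.8 CPM in the order WT, KO, WT LPS and KO LPS. Its effect was 0.02 ± 0.20.

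Outside these groups 3 members rose. Trim36 (ENSMUSG00000033949, chromosome 18, 46165302 to 46212607, minus strand), a COS-box protein that binds microtubules, stood at 11.6 and 7.45 CPM without LPS and 38.8 and 33.2 CPM after LPS (1.98 ± 0.26, adjusted p = 0.0140). Trim13 (chromosome 14, 61598247 to 61605946, plus strand), a ligase anchored in the endoplasmic reticulum, stood at 5.99 and 7.16 CPM without LPS and 28.5 and 18.4 CPM after LPS (1.84 ± 0.34, adjusted p = 0.0309). The gene overlaps Dleu2 on the opposite strand over 3108 bases, and no source used here states the strand setting of the counting. Trim13 is not alone in this, since 11 members overlap a protein-coding gene. The longest protein-coding overlaps on the opposite strand were Trim32 with Astn2 (11253 bases), Trim14 with Nans (9852) and Trim28 with Zbtb45 (6137). Trim56, known for antiviral activity and for a part in TLR3 and STING signalling, stood at 76.5 and 66.7 CPM without LPS and 141 and 127 CPM after LPS (0.94 ± 0.21, adjusted p = 0.0469). The call for Trim56 was lost under library totals (0.36, adjusted p = 0.243) and without the KO untreated library (0.82, adjusted p = 0.0635).

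Of the 3 chromatin-binding, 3 NHL and 3 single-domain members, 0 passed by edgeR over all genes. An unadjusted p under 0.05 was reached by 3 of these 9 (Trim24, Trim32 and Trim45). In the same edgeR test 4621 of all 13989 genes reached it, so a share of this size is common here. By DESeq2 0 of these 9 passed as well. With treatment alone in edgeR's model, Trim24, Trim32 and Trim45 did fall (adjusted p = 0.027, 0.032 and 0.036), where 15.3% of all genes fell. Trim28 (KAP1), the corepressor of KRAB zinc finger proteins, stood at 104 and 99.3 CPM without LPS and 71.6 and 103 CPM after LPS, where WT LPS alone was low (−0.20 ± 0.25, adjusted p = 0.599). With the WT LPS library left out, the sign of the Trim28 effect turned (0.07, adjusted p = 0.767). Trim33 (TIF1γ), a regulator of SMAD4, stood at 33.7 and 28.6 CPM without LPS and 21.3 and 22.9 CPM after LPS (−0.45 ± 0.23, adjusted p = 0.239). Trim24 (TIF1α), a nuclear receptor coregulator, stood at 21.4 and 19.5 CPM without LPS and 10.7 and 11.9 CPM after LPS (−0.82 ± 0.27, adjusted p = 0.113). Both LPS libraries lay below both untreated ones for Trim24 and Trim33. The NHL protein gene Trim32, mutated in limb-girdle muscular dystrophy, stood at 16.1 and 15.0 CPM without LPS and 8.39 and 9.0 CPM after LPS (−0.80 ± 0.29, adjusted p = 0.135). Trim8, known as a positive regulator of TNF and IL-1 signalling, stood at 84.2 and 115 CPM without LPS and 54.9 and 85.2 CPM after LPS (−0.49 ± 0.21, adjusted p = 0.180). Trim8 lacks a known C-terminal domain. For it the 2 treatments overlapped, and the KO-titled library was the higher one in each.

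Levels of different genes can be compared only per length, for which the authors' FPKM (fragments scaled by gene length and library size) was used. In the untreated library titled WT the highest FPKM among members were those of Trim30a (42.8), Trim25 (40.2) and Trim41 (27.3), followed by Trim8 (25.5) and Trim28 (24.4). In the untreated library titled KO the order was already another, with Trim25 (87.6) first, then Trim30a (41.55), Trim8 (34.2) and Trim35 (29.3). After LPS the order differed from both. Trim30c was highest at 244 FPKM in WT LPS and 233 in KO LPS, from 3.68 and 2.52 untreated. Trim25 at 165 and 148 FPKM and Trim30a at 156 and 167 changed places between the LPS libraries. Members took 0.214% and 0.241% of all counts in the untreated libraries titled WT and KO and 0.364% and 0.373% after LPS.

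The LPS response was next compared within each title. A gene was called when its ratio reached 2-fold, a mean level of 1 CPM or more and a 95% binomial interval of the counts that excluded no change. The intervals cover counting error only, and with 1 library per group there is no test. In WT titles 13 of 39 members were higher after LPS and 6 were lower, against 15.4% and 15.0% of all 12326 genes. In KO titles 12 were higher and 9 lower, against 14.6% and 17.8%. Of the 39 members, 10 were higher and 5 were lower in both titles. The share of all genes called in both titles was not computed, so these joint counts have no background. Trim30c was 64.7-fold (54.8 to 77) higher in WT titles and 86.8-fold (72.7 to 104.5) in KO titles. Trim30b was 30.7-fold (24.7 to 38.6) and 13.5-fold (11.3 to 16.2) higher, Trim21 7.06-fold (6.61 to 7.53) and 7.69-fold (7.25 to 8.16), and Trim26 5.44-fold (5.14 to 5.76) and 7.04-fold (6.69 to 7.41). In the same order, Trim30d was 5.24-fold and 5.18-fold, Trim13 4.76-fold and 2.57-fold, Trim30a 3.56-fold and 3.78-fold, and Trim36 3.35-fold and 4.45-fold higher. Trim12a (3.01-fold and 3.47-fold) and Trim34a (3.24-fold and 2.63-fold) completed the genes higher in both titles.

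A further 3 members were called higher in WT titles alone. Trim25 was 4.01-fold (3.88 to 4.13) higher there and 1.58-fold in KO titles, Trim14 2.08-fold (1.93 to 2.23) against 1.81-fold, and Trim6 2.14-fold (1.61 to 2.84) against 0.889 times. In KO titles alone, Trim12c was called at 2.17-fold (2.05 to 2.30), beside 1.79-fold in WT titles, and Trim2 at 2.52-fold (2.04 to 3.12). The genes lower in both titles were Trim16 (10.1-fold and 5.94-fold), Trim65 (6.06-fold and 4.76-fold), Trim62 (5.62-fold and 8.79-fold), Trim41 (2.70-fold and 3.46-fold) and Trim47 (2.16-fold and 2.51-fold). Trim59 was 6.37-fold (4.58 to 9.08) lower in WT titles, beside 0.796 times (0.629 to 1.00) in KO titles. Trim45 (2.88-fold), Trim46 (2.61-fold), Trim39 (2.39-fold) and Trim68 (2.33-fold) were called lower in KO titles alone. Trim45 stood at 4.13 and 5.64 CPM without LPS and 2.10 and 1.96 CPM with it, and Trim46 at 1.59 and 2.71 and then 1.86 and 1.04 CPM. Trim39 stood at 15.7 and 18.9 CPM without LPS and 12.8 and 7.89 CPM with it, and Trim68 at 6.30 and 7.41 and then 5.18 and 3.18 CPM. In Trim39, Trim45 and Trim68 both LPS libraries lay below both untreated ones, and in Trim46 they overlapped. A call in 1 title alone does not show a difference between titles, which is treated next.

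**Figure D3:**
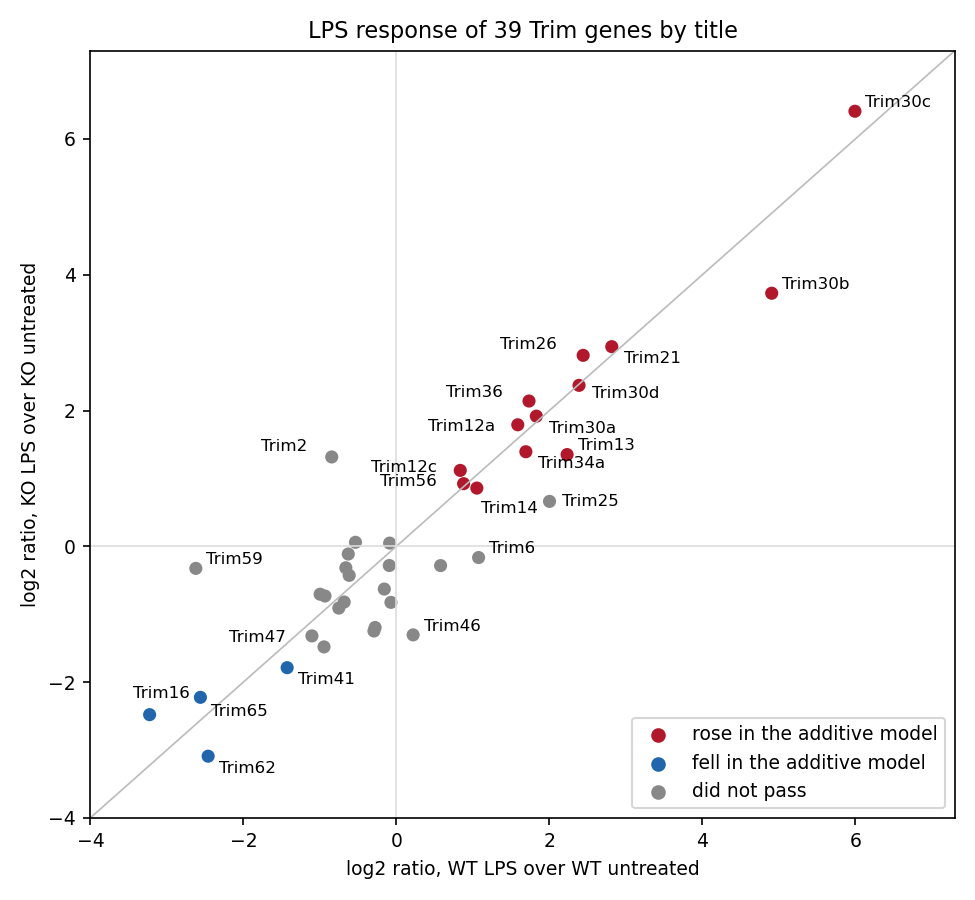
Log2 ratio of LPS over untreated (prior count 2) in WT titles (x axis) and KO titles (y axis) for the 39 Trim genes averaging 1 CPM or more, with the line of equal response. Red points rose and blue points fell in the additive model, and grey points did not pass. Trim30c lies at 5.99 and 6.41, while Trim59 (−2.62 and −0.33), Trim2 (−0.85 and 1.32), Trim46 (0.22 and −1.30) and Trim25 (2.00 and 0.66) lie farthest from the line.

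The LPS response differed 2-fold or more between titles for 6 members, with a 95% Poisson interval that excluded no difference. The response in KO titles was above that in WT titles for 2 members and below it for 4, of 39, against 7.78% and 10.4% of 12288 genes. Trim59, a membrane-anchored ligase, stood at 14.8 and 8.53 CPM without LPS and 2.33 and 6.79 CPM after LPS, and its response was 5.07-fold (3.40 to 7.55) higher in KO titles. Trim2, an NHL ligase of neurofilament turnover, stood at 6.67 and 5.42 CPM without LPS and 3.67 and 13.6 CPM after LPS, a response 4.57-fold (3.19 to 6.56) higher in KO titles. Their LPS effects in the additive model did not pass (−1.43 ± 0.66, adjusted p = 0.207 for Trim59 and 0.29 ± 0.63, adjusted p = 0.773 for Trim2). In both genes WT untreated and KO LPS were above the other library of their treatment. The response in KO titles was 2.53-fold (2.44 to 2.63) lower for Trim25, 2.28-fold (1.73 to 3.01) for Trim30b, 2.40-fold (1.59 to 3.62) for Trim6 and 3.06-fold (1.5 to 6.24) for Trim46. In these 4 genes KO untreated was above WT untreated and WT LPS was above KO LPS. Lyz1 had the same order, as had 15 of 39 members and 37.4% of all genes at 1 CPM, and the opposite order was that of 13 members and 31.8% of genes. At the other end, Trim30d (0.988, 0.914 to 1.07), Trim21 (1.09, 0.999 to 1.19) and Trim56 (1.03, 0.944 to 1.13) gave response ratios with intervals that include 1.

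Whether the floxed gene's genotype moved TRIM transcripts was asked within each treatment. Untreated, Trim25 alone was called, at 2.22-fold (2.15 to 2.29) higher in the library titled KO, so 1 of 39 members was higher and 0 were lower, against 3.16% and 2.03% of all genes. After LPS, Trim2 (3.72-fold, 2.80 to 5.00) and Trim59 (2.92-fold, 2.02 to 4.30) were higher in the library titled KO and Trim6 was lower (0.472 times, 0.344 to 0.642). These 2 and 1 of 39 members compare with 3.42% and 4.81% of all genes. For 27 of 39 members the ratio of KO to WT stayed within 1.5-fold in both treatments. The share of all genes that did so was not computed, so this count has no background. In the additive model no member passed for genotype by edgeR, and 0 of 41 had an unadjusted p under 0.05. Of all 13989 genes 0 passed and 39 had an unadjusted p under 0.05. DESeq2 and limma-voom also passed 0 members and 0 genes, with 33 and 62 genes at an unadjusted p under 0.05. With 1 residual degree of freedom this does not show that genotype had no effect. The largest member effects were 0.77 ± 0.63 for Trim2 and 0.53 ± 0.21 for Trim8, the latter at an unadjusted p of 0.0522 in edgeR's model across all genes.

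**Figure D4:**
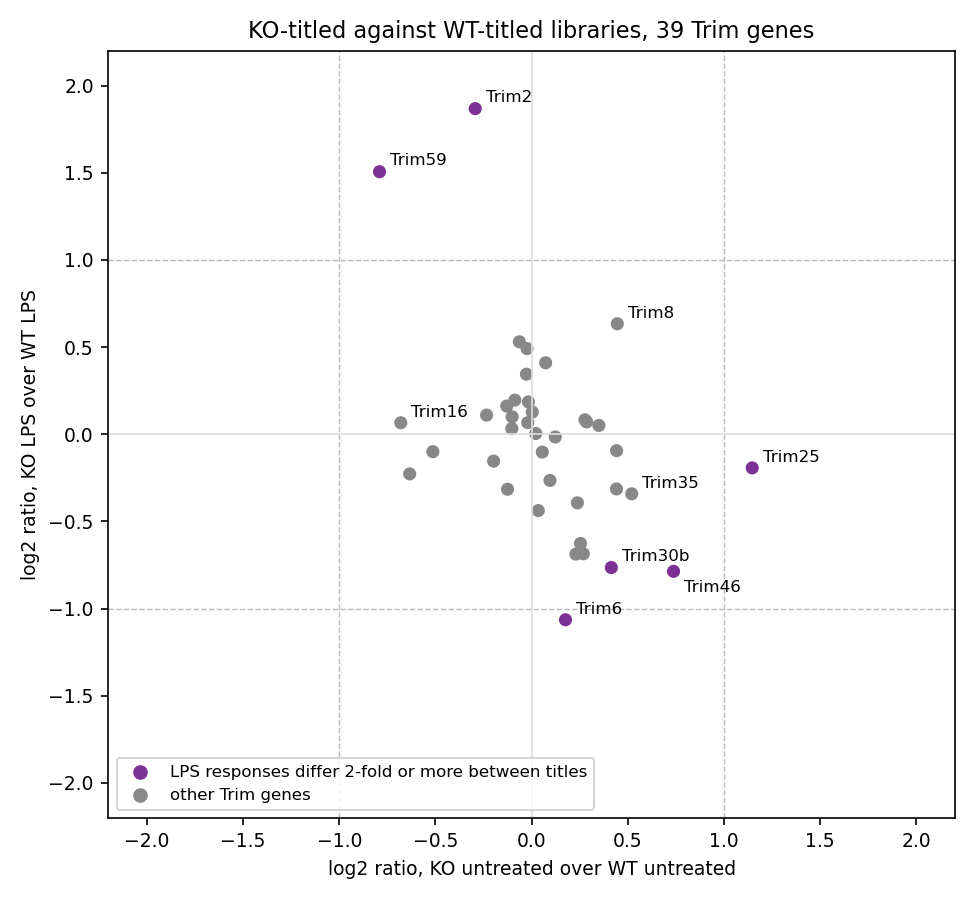
Log2 ratio of KO over WT titles (prior count 2) in untreated libraries (x axis) and LPS libraries (y axis) for 39 Trim genes, with dashed lines at 2-fold. Purple marks the 6 genes whose LPS response differed 2-fold or more between titles. Trim2 (−0.29 and 1.87), Trim59 (−0.79 and 1.51) and Trim25 (1.15 and −0.19) lie away from the central group.

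The wider pathway was described with lists of textbook partners. For comparison, the same test called 9.35% of all genes upward and 5.14% downward. The lists are short and were not tested as sets. Of 6 TRIM proteins without a Trim symbol, 4 were tested, 2 rose and 0 fell. Pml, the organiser of PML nuclear bodies, rose by 1.95 ± 0.24 (adjusted p = 0.0128) and the microtubule-binding Mid1 by 3.80 ± 0.41 (adjusted p = 0.00933). Among 18 partners and substrates in pattern-recognition signalling, 4 rose and 1 fell. The risers were the sensors that several TRIM ligases act on, Ifih1 (MDA5, 5.10 ± 0.46), Ddx58 (RIG-I, 2.73 ± 0.28) and Mb21d1 (cGAS, 2.47 ± 0.24), and the RIG-I relative Dhx58 (1.87 ± 0.24). Tab1, a subunit that activates the kinase TAK1, was the 1 that fell (−1.94 ± 0.29). The TRIM30a targets Tab2 (0.58 ± 0.22, adjusted p = 0.144) and Tab3 (0.60 ± 0.25, adjusted p = 0.176) did not pass. Of 10 E2 enzymes 1 rose, Ube2e1 (1.71 ± 0.32), near the share of all genes, and 0 fell. Of 6 corepressor partners of Trim28, 0 rose and 2 fell, Atf7ip (−1.89 ± 0.23) and the histone methyltransferase gene Setdb1 (−1.24 ± 0.25).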

How the data were processed

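Polyadenylated RNA of 4 libraries, 1 per group, was sequenced as paired reads. The submitters' processing notes name HISAT2 2.0.5 and the mm10 genome. The authors deposited 1 read count and 1 FPKM value for every gene and library, per the file headers. The counting program and strand setting were not named by any source, and 8 other per-sample columns were not used. Counts were scaled with edgeR's TMM method, and 3 counts, the upper limit that a count of 0 allows, correspond to 0.108 to 0.184 CPM. The additive model was fitted with edgeR 4.0.16 (glmQLFit, filterByExpr, Benjamini-Hochberg adjustment over 13989 genes). Ratios of 2 libraries used a prior count of 2 and exact 95% binomial intervals, and printed folds use no prior. DESeq2 1.42.0, limma 3.58.1 (voom), R 4.3.3, Python 3.11.15, SciPy 1.17.1 and matplotlib 3.10.9 were used. Log2 values and CPM were computed from the deposited counts. The edgeR fit was tested on simulated counts that held no genotype effect and no departure from additivity. That check does not cover the departures seen in these libraries. GENCODE M21 placed 39 of 41 members at the same position as the table.

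Values per library were printed for members past the model's threshold, for members past the size rule in a comparison and for 14 set members such as Trim30a and Trim25. Trim44, Trim5 and Trim47 were added after their values were seen, as were the partner genes singled out in the closing section. The members and lists were chosen with earlier results of these data known. Nothing says that libraries came from separate animals, so p-values measure only the spread between these libraries.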

Additional observations from a re-analysis of the deposited data

Results flagged for a closer look

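In all, 4 genes moved in opposite directions in matched comparisons, each with a 95% counting interval that excluded no change, and with responses that differed 2-fold or more. With 1 library per group the difference was not tested against replicates. The share of all genes that moved this way was not computed, so the count of 4 has no background. Responses differing 2-fold or more were found widely, with KO titles above WT titles for 7.78% of all genes and below for 10.4%. Trim2 was at 0.550 times its untreated level after LPS in WT titles and at 2.52 times in KO titles. Trim25 in the library titled KO was 2.22 times the WT-titled level untreated and 0.875 times after LPS. For Trim30b the same ratios were 1.34 and 0.588, and for Trim59 they were 0.575 and 2.92. Trim25 and Trim30b had the order of Lyz1 between titles within each treatment (2.86 and 32.9 CPM without LPS and 33.1 and 2.63 CPM after LPS, WT before KO), and Trim2 and Trim59 the opposite one.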

How the results depend on the processing

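Library totals in place of TMM moved the median log2 LPS ratio of all genes by −0.60 in WT titles and −0.46 in KO titles. Under them members lower after LPS numbered 16 in WT titles and 15 in KO titles, against 32.8% and 31.3% of all genes, and members falling in the additive model 16, against 22.5%. Trim12c, Trim14 and Trim56 then kept their sign but not their call (adjusted p = 0.206, 0.182 and 0.243). Falling members numbered 11 with treatment alone in the model (15.3% of all genes), 7 with no filter on low counts (7.01%) and 8 at an adjusted p under 0.1 (10.9%), and each of these sets held the 4 named above. Leaving out each library in turn, with treatment alone in the model, gave 12 to 14 rising and 4 to 7 falling members, with 7 falling when WT LPS was left out (8.64% of all genes). That omission also reversed Trim28 (0.074). Trim14 was lost without WT untreated (adjusted p = 0.0519) and Trim56 without KO untreated (adjusted p = 0.0635). Apart from Trim12c, Trim14 and Trim56, the 10 other rising members and the 4 falling ones passed in all 10 other fits. A fold of 1.5 gave 15 members lower after LPS in each title (25.3% of all genes in WT titles and 29.2% in KO titles). It gave 2 higher and 3 lower in KO against WT untreated (7.97% and 5.98%), 5 lower in KO against WT after LPS (10.6%), and 10 with a lower response in KO titles (19.4%). Without a floor on CPM, 2 members were higher in KO untreated (2.52%). At a floor of 5 CPM 0 were lower in KO after LPS (3.28%). The authors' FPKM with a pseudocount of 1, which shrinks ratios of low genes, gave 4 members lower after LPS in KO titles (6.64%) and 0 higher and 0 lower in KO against WT after LPS (1.21% and 1.79%). The additive model compares LPS with untreated libraries within titles, and the labels carry no replicate numbers for a further pairing. Library depth limits Trim7, Trim17 and Trim46, with 69 to 159 counts over all libraries.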

Other observations

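The 27 Trim genes under the count rule included 10 with 0 counts in all libraries. Among these were the muscle gene Trim63 and the erythroid gene Trim10, in libraries where muscle markers summed to at most 1.90 CPM and erythroid markers to at most 0.582 CPM. Trim63 and Trim10 were picked from the list. Other Trim genes under the rule had a few counts, such as Trim72 with 18, Trim55 with 4, Trim58 with 3 and Trim54 with 1. Trim29 had 9, 22, 5 and 1 counts in WT, KO, WT LPS and KO LPS, and Trim15, a neighbour of Trim26, had 0, 7, 10 and 5.

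Some partner genes had the library order of Trim25. They were picked after their values were seen. The share of all genes with the full order was not computed. Its order between titles, KO higher untreated and WT higher after LPS, was that of 37.4% of all genes at 1 CPM. Irf7, the transcription factor of the late interferon response, stood at 136 and 606 CPM without LPS and 1252 and 799.5 CPM after LPS, in the order WT and KO. It was 4.45-fold (4.28 to 4.63) higher in KO untreated and 1.57-fold (1.53 to 1.60) lower in KO LPS. Ube2l6, the E2 enzyme that conjugates ISG15, stood at 46.6 and 101 CPM without LPS and 263 and 194 CPM after LPS. Mefv, which encodes pyrin, a TRIM protein, stood at 21.2 and 57.4 CPM without LPS and 406 and 140.1 CPM after LPS. Ddx58, which encodes the Trim25 target RIG-I, did not share this order, at 106 and 101 CPM without LPS and 607 and 733 CPM after LPS.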
